A study of Mus musculus with 9 samples.

Results

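The genes described here are 34 interferon-stimulated genes, the transcripts that cells switch on when interferon binds its receptor. They were taken from a list of named genes, and each was read on the brightest probeset that the array's annotation ties to that symbol alone. All 34 were found among the 30142 named genes of the array. Expression was measured in LSK cells, the marrow cells that lack mature lineage markers and carry Sca-1 and c-Kit, which hold the blood stem cells and earliest progenitors. The 4 knockout (KO) mice were Abi1(-/-);Tg (Mx1-cre(+)), in which the Cre recombinase had removed the floxed Abi1 alleles. The 5 wild-type (WT) mice were Abi1(fl/fl);Tg (Mx1-cre(-)), with the floxed alleles and no Cre. All 9 mice had received 3 injections of poly(I:C) at 8 to 9 weeks of age, and marrow was taken at 12 to 14 weeks. The interferon-responsive Mx1 promoter drives Cre, so recombination is not limited to blood cells. Only KO mice carried Cre, so Cre itself and the deletion cannot be told apart. All mice analysed here had poly(I:C), so how much of a signal remained from the injections cannot be measured in these data.

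Poly(I:C) is a synthetic double-stranded RNA. Cells sense it as if it were viral RNA and release type I interferon, which acts through the receptor IFNAR and the kinases JAK1 and TYK2. The kinases activate a complex that holds STAT2 and IRF9 and binds the interferon-stimulated response element (ISRE). Interferon gamma acts largely through another element, the gamma-activated site (GAS). The induced genes block viral replication in many ways and feed back on the pathway. Interferon also drives quiescent blood stem cells into the cell cycle, and it induces Ly6a, which encodes the Sca-1 antigen of the sort. Ly6a was on the list of 10 stem cell markers used below, of which 8 were measured, and its own values are not given here.

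The promoters were searched for the letters that these factors are known to bind, because the choice of genes did not use sequence. RefSeq promoters (build GRCm38.p6, 250 bases before to 50 bases after the start) were matched for 26 of the 34 genes, with 33 promoters in all. The ISRE core, spelled GAAA, any 2 bases and GAAA, was found on either strand in promoters of 16 of the 26 genes (61.5%). Of the member promoters 51.5% held it, against 3.44% of all 32851 promoters in the table. The GAS letters TTCNNNGAA were found for 9 genes (34.6%), in 27.3% of member promoters against 8.3% of all promoters. The motifs can overlap, and 4 genes held both. Of the 25 ISRE core matches 19 lay wholly within 150 bases before the start, as the map of motif positions shows. A match describes letters only, and a promoter without one says nothing about the factor.

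The following promoters are printed 5′ to 3′ on the strand of the gene, with every match to either motif in capitals. Irf1 and Isg15 had the smallest p-values of the genes with a match, Bst2 and Igtp the brightest signals with a match, and Irf9 the brightest signal without one. They lie at chr11:53769764-53770063 on the plus strand (Irf1), chr4:156200769-156201068 on the minus strand (Isg15), chr8:71537423-71537722 on the minus strand (Bst2), chr11:58199306-58199605 on the plus strand (Igtp) and chr14:55603735-55604034 on the plus strand (Irf9).
Irf1: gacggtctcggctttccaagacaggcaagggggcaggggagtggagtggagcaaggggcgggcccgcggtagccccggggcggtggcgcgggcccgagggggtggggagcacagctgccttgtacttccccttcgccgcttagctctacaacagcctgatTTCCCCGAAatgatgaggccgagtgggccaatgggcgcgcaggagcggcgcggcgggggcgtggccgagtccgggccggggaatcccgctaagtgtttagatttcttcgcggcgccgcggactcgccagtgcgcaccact
Isg15: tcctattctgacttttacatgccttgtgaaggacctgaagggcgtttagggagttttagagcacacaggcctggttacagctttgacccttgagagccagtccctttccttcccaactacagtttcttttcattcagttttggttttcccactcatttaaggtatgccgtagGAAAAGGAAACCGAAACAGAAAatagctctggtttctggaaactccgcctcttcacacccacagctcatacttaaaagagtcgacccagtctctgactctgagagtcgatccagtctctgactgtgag
Bst2: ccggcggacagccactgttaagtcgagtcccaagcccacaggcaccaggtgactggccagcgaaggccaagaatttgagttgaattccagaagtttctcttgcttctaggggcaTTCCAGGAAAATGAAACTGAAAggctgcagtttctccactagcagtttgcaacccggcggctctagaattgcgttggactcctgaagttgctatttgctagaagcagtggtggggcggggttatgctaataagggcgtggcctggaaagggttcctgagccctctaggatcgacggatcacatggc
Igtp: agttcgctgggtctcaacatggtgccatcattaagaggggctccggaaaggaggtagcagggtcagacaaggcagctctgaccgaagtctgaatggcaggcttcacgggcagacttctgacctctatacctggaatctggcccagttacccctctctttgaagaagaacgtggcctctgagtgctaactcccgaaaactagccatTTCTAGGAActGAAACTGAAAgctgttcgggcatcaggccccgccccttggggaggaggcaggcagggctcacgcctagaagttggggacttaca
Irf9: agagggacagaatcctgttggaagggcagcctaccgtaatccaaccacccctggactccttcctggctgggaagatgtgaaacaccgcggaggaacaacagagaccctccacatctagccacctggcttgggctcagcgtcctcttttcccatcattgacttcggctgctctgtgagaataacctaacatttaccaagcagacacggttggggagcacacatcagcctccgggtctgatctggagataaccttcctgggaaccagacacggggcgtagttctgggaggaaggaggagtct
In Isg15, 3 overlapping ISRE cores ran from position -78 to position -57, counted from the start. In Bst2, a GAS match at -136 ran into a pair of overlapping ISRE cores. The Igtp promoter held a GAS match at -45 and an ISRE core at -34, and that of Irf1 a GAS match at -90 and no ISRE core.

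**Figure D1:**
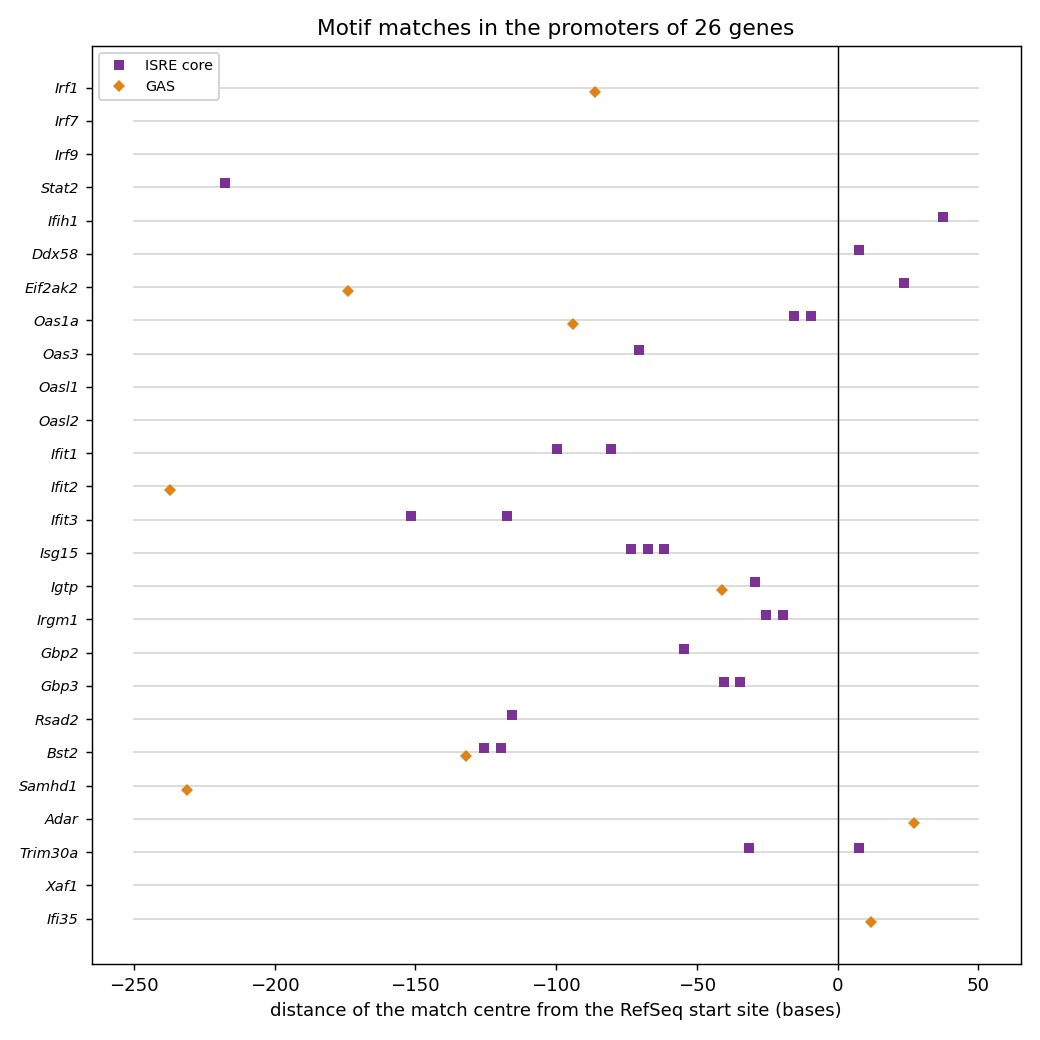
Positions of ISRE core matches (squares) and GAS matches (diamonds) in the RefSeq promoters of 26 interferon-stimulated genes, with distance from the start site in bases on the horizontal axis. Matches of all promoters of a gene share its line. Of the 25 ISRE core matches, 19 lie within 150 bases before the start and 4 lie after it.

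The labels matched the deleted gene: Abi1 was 5.59 to 6.11 in KO and 11.49 to 11.65 in WT on the log2 scale (limma adjusted p = 7.42e-08). The array of KO replicate 1 resembled the others least, at a median correlation of 0.986 across genes, followed by WT replicate 5 at 0.989, while the other 7 reached 0.993 to 0.996. Background was set in each array by 1733 genes of olfactory and vomeronasal receptors, at their percentile 95, which lay at 5.65 in KO replicate 1 and at 5.31 to 5.39 in the others. All 8 measured stem cell markers, Kit and Cd34 among them, were above background, at mean signals of 10.88 to 11.13 in KO and 10.97 to 11.43 in WT. Of the plasmacytoid dendritic cell markers, 5 of 9 were above background, with mean signals of 7.23 to 7.51 in KO and 7.11 to 7.34 in WT. Siglech, which defines that type, averaged 5.96 in KO and 5.77 in WT, and Ccr9 was below background, while Bst2 on that list is also a gene described here. Monocyte markers (9 of 10 above background) had mean signals of 8.79 to 9.56 in KO and 8.40 to 9.38 in WT, and neutrophil markers (6 of 10) 5.73 to 7.91 in KO and 5.35 to 6.48 in WT. Means were higher in KO for 1 of 8 stem cell markers and 7 of 9 plasmacytoid dendritic cell markers. The same held for 8 of 10 monocyte, 10 of 10 neutrophil and 8 of 9 B cell markers. It also held for 5 of 8 T and NK cell, 6 of 7 erythroid, 9 of 9 megakaryocyte and 8 of 10 stroma markers. Over all genes it was 64.2%, and no marker passed limma at an adjusted p of 0.05. The part of these cell types in the values below was not tested.

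Nearly all of the interferon-stimulated genes gave a signal above that of the receptor genes in LSK cells. The mean over 9 arrays was above background for 33 of 34 genes, against 52.8% of all named genes. Against a background set by the neg and antigenomic control probesets, at their percentile 95, it was 3 of 34. That level was 10.70 to 12.27, far above the array medians of 5.08 to 5.33. The share of all genes above it was not computed, so the 3 of 34 does not tell which genes lack signal. Per array, 32 genes were above the receptor background in KO replicate 1 and 33 in each of the other 8 arrays. The exception was Mx1, the antiviral GTPase gene whose promoter drives Cre in these mice. Mx1 had log2 signals of 5.03, 4.88, 4.88 and 4.82 in KO mice, against 4.88, 4.83, 4.88, 4.88 and 4.88 in WT mice, below the background level of its array in all 9. Mx2, its neighbour in the family, was 5.65 to 5.72 in KO and 5.59 to 5.66 in WT, just above background except in KO replicate 1. Ifit3 also lay near background, by a mean of 0.37. The brightest signal belonged to Bst2, which encodes tetherin, the protein that holds budding virus on the cell surface. Bst2 was 14.28, 14.77, 14.48 and 14.14 in KO mice, against 13.96, 14.45, 14.57, 14.22 and 14.01 in WT mice, and the groups overlapped. In sorted bulk cells, fewer cells of a type and less RNA per cell cannot be told apart. Signals of different probesets do not rank genes by RNA amount.

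**Figure D2:**
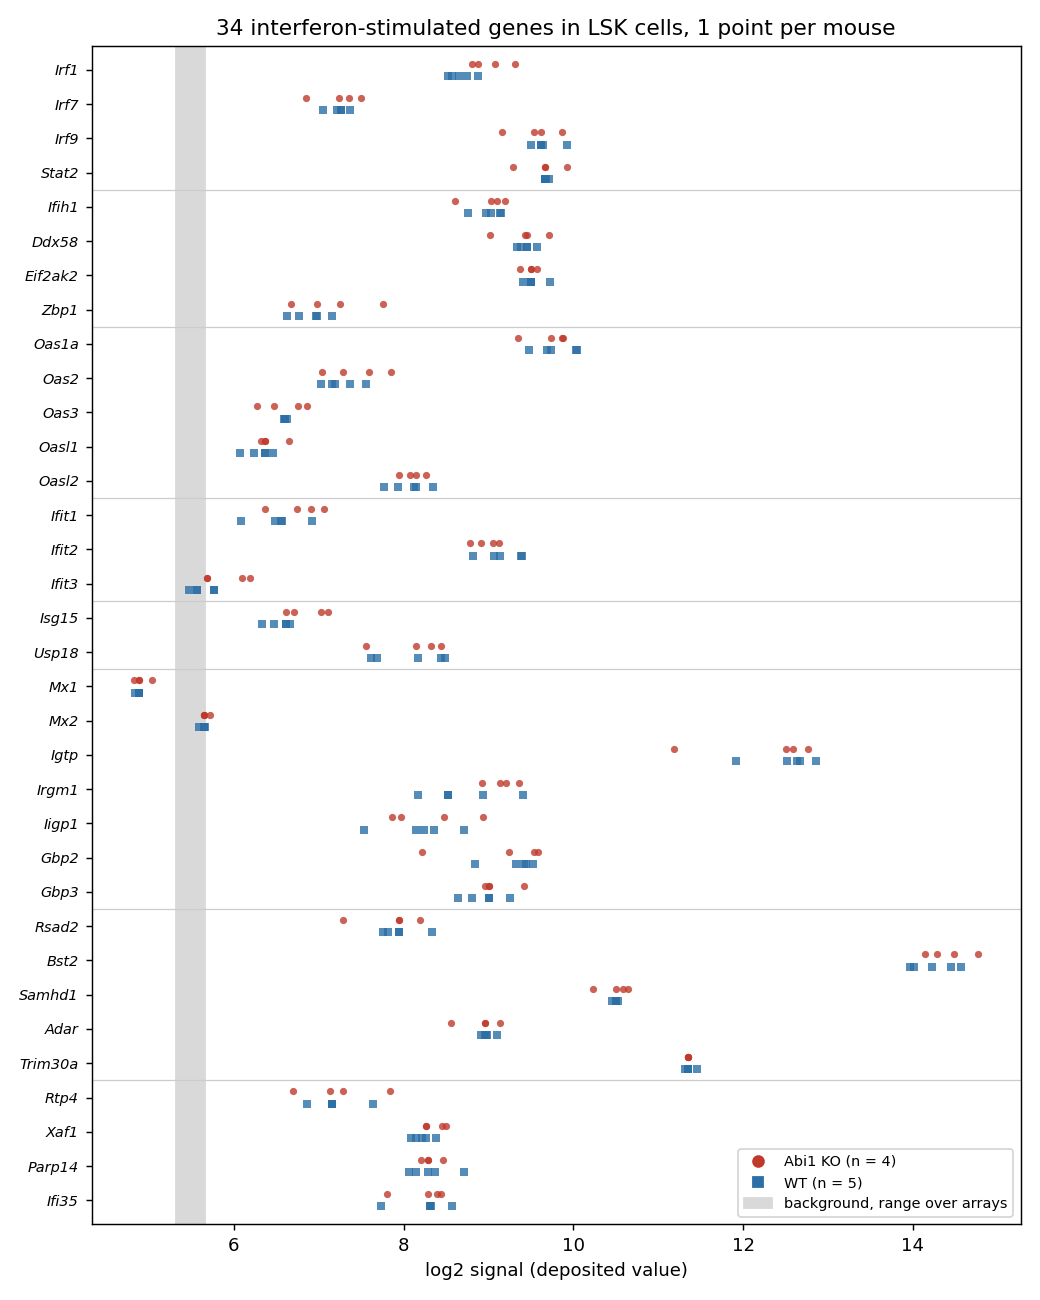
Log2 signal (horizontal axis) of each of the 34 genes, with 1 point per mouse, KO circles above WT squares, and genes grouped by role. The grey band is the range of the background level over the 9 arrays (5.31 to 5.65), and Mx1 alone lies to its left in every mouse.

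The comparison of KO with WT asked whether loss of Abi1 changed these transcripts. No interferon-stimulated gene passed limma at an adjusted p of 0.05 (0 of 34), where 0.00332% of all named genes did, namely Abi1 alone. Differences ran from -0.26 for Igtp to 0.44 for Irgm1 on the log2 scale, with a median of 0.018 beside 0.034 over all genes. At an unadjusted p under 0.05 there were 2 of 34 genes, Irf1 and Isg15, both with higher means in KO, where 5.01% of all genes had such a p, 3.82% higher and 1.19% lower in KO. KO and WT arrays overlapped for every one of the 34 genes, and 0.856% of all genes had groups that did not. The 95% interval of the difference lay within 1 log2 unit of 0 for 33 of the 34 genes, Igtp being the exception with -1.03 to 0.51.

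How many of the genes were higher in KO depended on 1 or another array and on the scaling. Of the 34 genes 18 had a higher mean in KO and 16 a lower one, and 64.2% of all genes had a higher mean in KO. Among genes above background these were 17 of 33, beside 54.3% of all such genes. Without KO replicate 1, the array with the lowest correlation with the others, 29 of 34 were higher in KO (54.7% of all genes). Without KO replicate 2 or WT replicate 4, 13 of 34 were higher in KO, beside 64.1% and 64.4% of all genes. Quantile normalization gave 25 of 34, beside 53.5% of all genes, and centring each array on its median 12 of 34, beside 44.0%. None of these settings brought any of the 34 genes past the adjusted threshold.

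**Figure D3:**
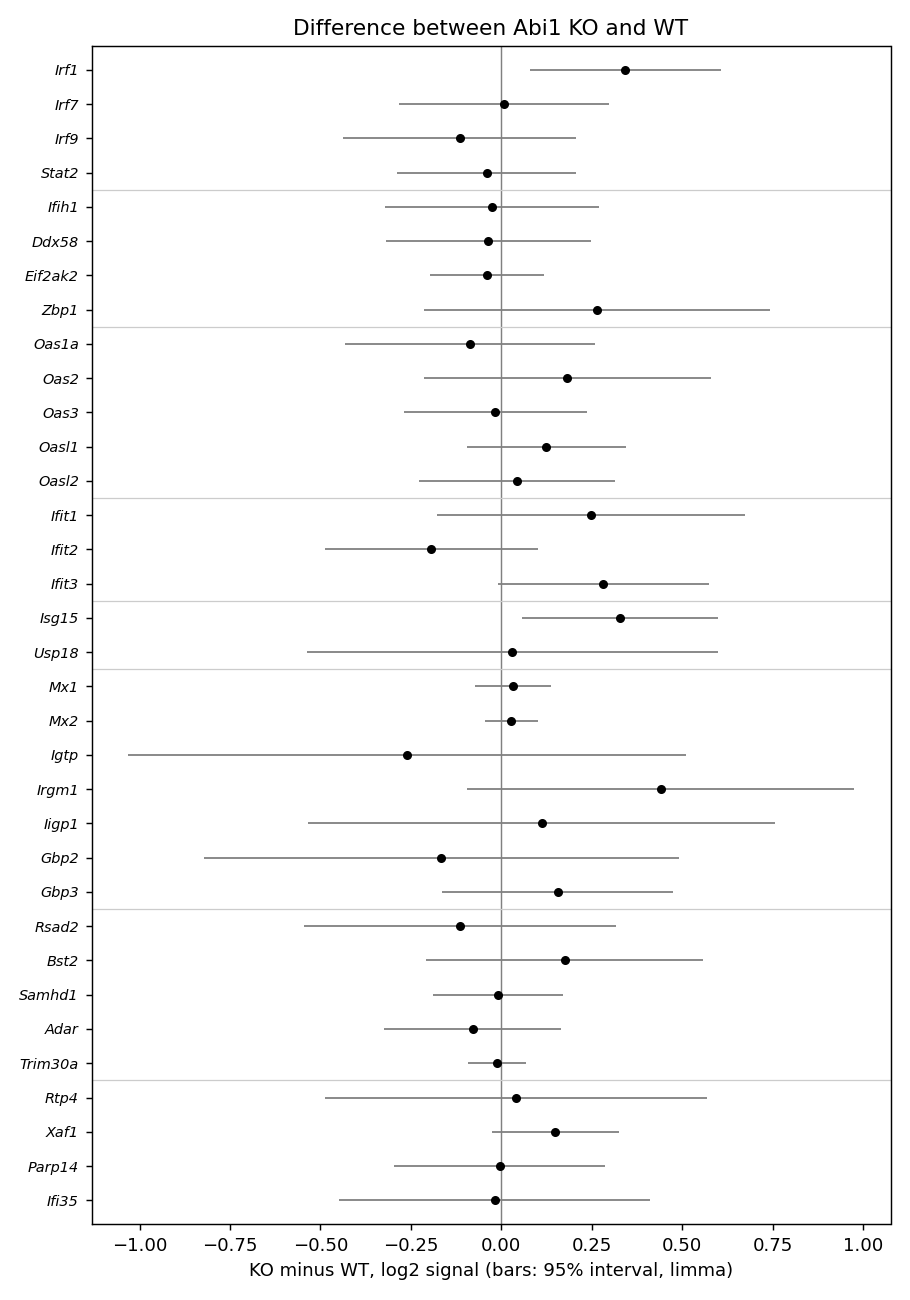
KO minus WT difference in log2 signal (horizontal axis) for each of the 34 genes, as limma estimates with 95% intervals from 4 KO and 5 WT mice. The intervals of Irf1 and Isg15 lie above 0 before adjustment over all genes; no gene passed after it.

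Among the transcription factors of the response, Irf1 had the smallest p-value of the 34 genes, while Irf9, Stat2 and Irf7 differed by 0.12 or less. Irf1 encodes a factor induced by interferon gamma and by NF-kappaB, which in turn activates antiviral genes. Its log2 signals were 8.87, 9.31, 9.07 and 8.80 in KO mice, against 8.74, 8.65, 8.52, 8.57 and 8.87 in WT mice. KO replicates 2 and 3 lay above every WT array, and KO replicate 1 tied with WT replicate 5. The difference was 0.34 (SE 0.12, n = 4 and 5, limma adjusted p = 0.786, unadjusted exact permutation p = 0.0317, two-sided). A dimmer probeset of Irf1 did not share it, averaging 5.90 in KO and 5.88 in WT, and with both probesets averaged the difference was 0.18. Irf9 and Stat2 encode partners in the ISRE-binding complex. Irf9 was 9.16, 9.87, 9.53 and 9.62 in KO mice, against 9.64, 9.62, 9.62, 9.50 and 9.92 in WT mice. Stat2 was 9.29, 9.92, 9.67 and 9.67 in KO mice, against 9.66, 9.67, 9.67, 9.68 and 9.71 in WT mice. In both genes KO replicate 1 was the lowest of the 9 arrays. Stat2 differed by -0.041, with a 95% interval from -0.29 to 0.21, and by 0.075 without KO replicate 1. Irf7 encodes the factor that amplifies interferon production. It was 6.85, 7.50, 7.36 and 7.24 in KO mice, against 7.37, 7.26, 7.26, 7.05 and 7.21 in WT mice, a difference of 0.0075.

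Sensors of foreign RNA and DNA gave differences from -0.039 to 0.27. Zbp1, a sensor of left-handed nucleic acid that can start necroptosis, was 6.67, 7.76, 7.25 and 6.98 in KO mice, against 6.77, 7.15, 6.98, 6.63 and 6.97 in WT mice. KO replicates 2 and 3 were above all WT arrays while KO replicate 1 was among the lowest, and the difference of 0.27 (SE 0.21) was within the spread of the arrays. Ifih1 and Ddx58 encode the helicases that detect double-stranded RNA such as poly(I:C) in the cytoplasm. Ifih1 averaged 8.98 ± 0.26 in the 4 KO mice against 9.01 ± 0.16 in the 5 WT mice (SD). Ddx58 averaged 9.40 ± 0.29 in the 4 KO mice against 9.44 ± 0.088 in the 5 WT mice (SD). Eif2ak2, the gene of the kinase PKR that halts translation, differed by -0.039, with 1 value (9.50) in 5 of the 9 arrays.

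The OAS family includes enzymes that make oligoadenylates, which switch on RNase L. Of its 5 members here 3 had higher and 2 lower means in KO. Oas1a was 9.88, 9.87, 9.74 and 9.35 in KO mice, against 9.69, 10.03, 10.04, 9.74 and 9.48 in WT mice. Oasl1, an OAS-like gene whose product restrains translation of Irf7, was 6.32, 6.65, 6.36 and 6.36 in KO mice, against 6.36, 6.46, 6.36, 6.07 and 6.24 in WT mice. The differences of these 2 genes were -0.086 and 0.12, and KO replicate 2 held the highest Oasl1 signal. Oas2 averaged 7.44 in KO and 7.26 in WT, and Oasl2 8.11 in KO and 8.06 in WT. Oas3 differed by -0.017, with an SD of 0.27 in KO and 0.015 in WT.

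The IFIT genes encode proteins that bind viral RNA and block its translation, and they did not share a direction. Ifit3 was 6.19, 6.10, 5.68 and 5.68 in KO mice, against 5.47, 5.77, 5.57, 5.57 and 5.77 in WT mice. KO replicates 1 and 2 lay above the WT range and KO replicates 3 and 4 within it, with a difference of 0.28 (SE 0.13, limma adjusted p = 0.786). Ifit1 was 6.74, 7.06, 6.91 and 6.36 in KO mice, against 6.92, 6.57, 6.55, 6.48 and 6.08 in WT mice. Ifit2 ran the other way, at 8.78, 8.91, 9.12 and 9.05 in KO mice, against 9.14, 9.39, 9.06, 9.38 and 8.82 in WT mice. Ifit1 differed by 0.25 (SE 0.19) and Ifit2 by -0.19 (SE 0.13), and in both genes the groups overlapped.

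Isg15 encodes a ubiquitin-like protein that is attached to other proteins, and Usp18 the protease that removes it and dampens the receptor. Isg15 was 7.11, 7.03, 6.71 and 6.61 in KO mice, against 6.61, 6.61, 6.66, 6.47 and 6.33 in WT mice. KO replicates 1 to 3 lay above every WT array, and KO replicate 4 tied with WT replicates 1 and 2. KO exceeded WT by 0.33 (SE 0.12, limma adjusted p = 0.786, unadjusted exact permutation p = 0.0317, two-sided), and by 0.25 without KO replicate 1 and 0.18 with array weights. Usp18 averaged 8.11 ± 0.39 in the 4 KO mice against 8.08 ± 0.41 in the 5 WT mice (SD). Its lowest arrays were KO replicate 1 at 7.55 and WT replicates 4 and 5 at 7.69 and 7.62.

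Interferon-induced GTPases of the IRG and GBP families attack the vacuoles of intracellular microbes and respond strongly to interferon gamma. Of the 5 genes with the widest range over the 9 arrays, 4 belonged to them. Igtp (Irgm3) had the widest, at 11.18, 12.76, 12.59 and 12.50 in KO mice, against 12.63, 12.67, 12.52, 11.91 and 12.86 in WT mice. KO replicate 1 lay far below the rest and WT replicate 4 next. Gbp2 had the same low arrays, at 8.21, 9.54, 9.58 and 9.24 in KO mice, against 9.32, 9.42, 9.44, 8.84 and 9.52 in WT mice. Without KO replicate 1 the difference of Igtp was 0.099 in place of -0.26, and that of Gbp2 0.15 in place of -0.17. Iigp1 was 7.86, 8.93, 8.47 and 7.97 in KO mice, against 8.14, 8.24, 8.36, 7.53 and 8.71 in WT mice.

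Irgm1, a regulator of the IRG proteins that mouse stem cells are known to need, had the largest difference of the 34 genes. Its signals were 9.13, 9.36, 9.20 and 8.92 in KO mice, against 8.52, 8.94, 9.41, 8.17 and 8.52 in WT mice. WT replicates 1, 4 and 5 lay below all KO arrays, and WT replicate 3 above all of them. The difference was 0.44 (SE 0.23, limma adjusted p = 0.786, unadjusted exact permutation p = 0.143, two-sided), and 0.62 without WT replicate 3, with an adjusted p of 0.729. Gbp3 was 8.96, 9.42, 9.01 and 9.01 in KO mice, against 8.81, 9.01, 9.25, 8.64 and 9.01 in WT mice, a difference of 0.16 (SE 0.14).

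The group of 5 other restriction factors, Bst2 among them, had differences from -0.11 to 0.18. Samhd1, which depletes the nucleotides that viruses need, was 10.23, 10.58, 10.64 and 10.50 in KO mice, against 10.45, 10.50, 10.50, 10.50 and 10.53 in WT mice. Trim30a, a mouse regulator of inflammatory signalling, held 11.35 in 7 of 9 arrays, the others being WT replicate 1 at 11.31 and WT replicate 5 at 11.45. Identical values in arrays of different mice are frequent in the deposited table, and they make the measured spread small. Of the 34 genes 4 held 1 value in at least 5 arrays, beside 25.8% of all genes, and above background 3 of 33, beside 13.2%. The RNA editor gene Adar averaged 8.91 in KO and 8.98 in WT. Rsad2, which encodes viperin, averaged 7.84 ± 0.39 in the 4 KO mice against 7.95 ± 0.23 in the 5 WT mice (SD), with KO replicate 1 lowest at 7.29.

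Among the remaining members, Rtp4 was 7.28, 7.84, 7.13 and 6.70 in KO mice, against 7.16, 7.16, 7.64, 6.86 and 7.16 in WT mice, a difference of 0.042. Xaf1, a gene linked to cell death, was 8.45, 8.50, 8.26 and 8.26 in KO mice, against 8.26, 8.14, 8.38, 8.09 and 8.22 in WT mice. Its difference of 0.15 (SE 0.077, limma adjusted p = 0.786) rested on KO replicates 1 and 2, which lay above the WT range. The ADP-ribosyltransferase gene Parp14 differed by -0.0040 and Ifi35 by -0.018.

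The mice differed from each other within the groups, and many of the genes shared their high and low arrays. The mean deviation of the 34 genes from their means was -0.18, 0.28, 0.077 and -0.058 in KO replicates 1 to 4, against -0.029, 0.034, 0.065, -0.18 and -0.0072 in WT replicates 1 to 5. KO replicate 2 was high and KO replicate 1 and WT replicate 4 were low. KO replicate 2 held the highest signal of the 9 arrays for 17 of 34 genes, and its deviation was positive in all 8 role groups, from 0.20 to 0.32. KO replicate 1 held the lowest signal for 13 genes and WT replicate 4 for 8. The same counts over all genes were not made. The GTPases deviated by -0.33 in KO replicate 1 and -0.39 in WT replicate 4. Over all genes above background the deviations were 0.029 in KO replicate 1, 0.036 in KO replicate 2 and 0.016 in WT replicate 4. With quantile normalization the members' deviations were -0.25, 0.29 and -0.23 in these 3 arrays. Neutrophil markers were brightest in KO replicate 1 (7.91) and KO replicate 2 (7.73), and erythroid markers 8.54 in KO replicate 1 and 8.59 in WT replicate 4, where 6 of the other arrays lay at 8.96 to 9.61. WT replicate 5 had by far the lowest erythroid markers, at 6.38, and the lowest megakaryocyte markers, at 7.40. The mean deviation of the 34 genes in that array was -0.0072, and -0.14 with quantile normalization. Its role groups differed, from -0.41 for the ISG15 system and -0.26 for the IFIT family to 0.11 for the GTPases. The part of cell composition or RNA quality in these deviations was not tested. The spread of the members was close to that of other genes, with a median SD within groups of 0.21 for the 33 genes above background and 0.20 for all 15911 such genes.

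**Figure D4:**
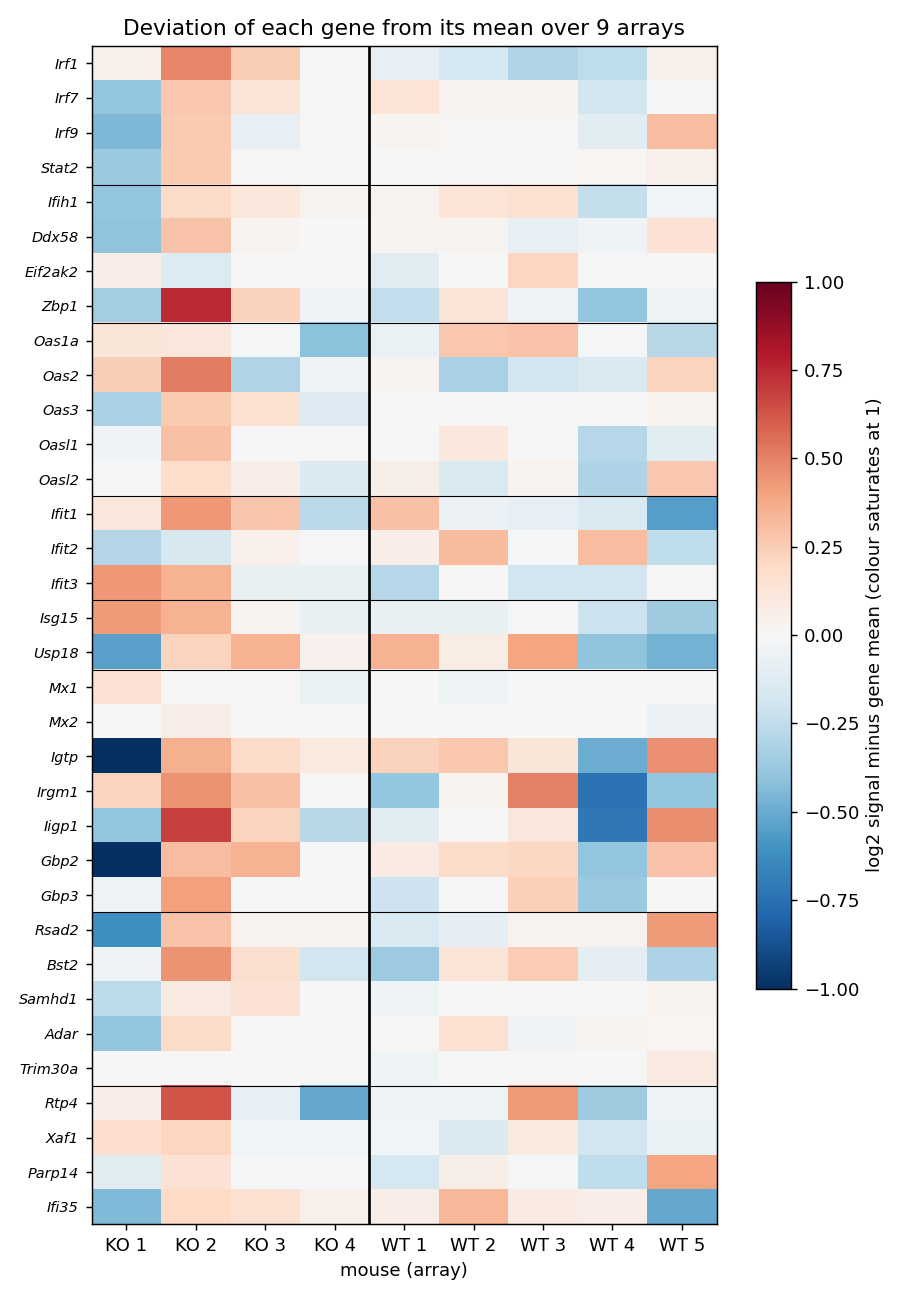
Deviation of each gene's log2 signal from its mean over the 9 arrays (colour, saturating at 1), with the 4 KO mice left of the line and the 5 WT mice right of it. KO replicate 2 is mostly red (17 of 34 genes at their highest), while KO replicate 1 and WT replicate 4 hold the lowest signals of 13 and 8 genes.

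The rest of the pathway was described from a list of 50 further genes, of which 46 were measured. With limma 0 of 46 passed at an adjusted p of 0.05, and 1 gene did at the same level unadjusted, where 5.01% of all genes did. That count was 0 without KO replicate 1 or WT replicate 4, and 4 without KO replicate 3. Of the 18 measured interferon genes 3 were above background, Ifnz, Ifnl2 and Ifnl3, at means near the background level. The interferon beta gene Ifnb1 averaged 5.01 in KO and 4.75 in WT, and the interferon gamma gene Ifng 4.69 in KO and 4.52 in WT, both below background. Ifna6 was the gene with the unadjusted p under 0.05, at 5.03 in KO and 4.71 in WT, also below background. Of 6 receptor genes 5 were above background, all except Ifnlr1, which encodes the interferon lambda receptor. Ifnar1 averaged 9.67 in KO and 9.68 in WT, and Ifnar2 13.02 in KO and 12.86 in WT. Ifngr1, the interferon gamma receptor gene, was 10.88, 11.83, 12.26 and 11.98 in KO mice, against 12.27, 12.36, 11.94, 11.94 and 10.66 in WT mice, low in KO replicate 1 and WT replicate 5.

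The kinase gene Jak1 differed by -0.21 (SE 0.13) and Tyk2 by -0.28 (SE 0.19). Jak1 was 12.53 in KO replicate 1 and 13.10 to 13.14 in the other KO arrays, against 13.14 to 13.32 in WT. Tyk2 was 7.72 in KO replicate 1 and 8.60 in each of the other KO arrays, against 8.44 to 8.82 in WT. Among genes that lead to interferon production, all 11 were above background, with differences from -0.29 for the double-stranded RNA receptor gene Tlr3 to 0.14 for the adaptor gene Mavs. Irf3, the factor that starts interferon beta transcription, averaged 9.51 in KO and 9.56 in WT. Of the brakes on the pathway, Socs1 and Socs3 were below background and the other 5 of 7 above it.

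Interferon-stimulated genes outside the 34 were read from a further list. Of 77 listed genes 63 were measured, 57 of them above background, and 0 passed limma at an adjusted p of 0.05. The mean was higher in KO for 29 and lower for 34, and unadjusted p-values under 0.05 numbered 8, of which 5 were higher and 3 lower, where 5.01% of all genes had such a p (3.82% higher, 1.19% lower). That count of 8 was 5 without KO replicate 1 or WT replicate 2, 4 without KO replicate 2, 3 without KO replicate 3 and 3 with the replicate number as a block. B2m, the light chain of MHC class I, had signals of 17.55, 17.52, 17.39 and 17.38 in KO mice, against 17.17, 17.03, 17.38, 17.03 and 17.19 in WT mice. The groups touched at 1 value, WT replicate 3 tying with KO replicate 4 at 17.38, and the difference was 0.30 (SE 0.080, limma adjusted p = 0.786). The chemokine gene Cxcl10 was 8.62, 9.34, 9.97 and 9.25 in KO mice, against 9.36, 8.09, 7.45, 7.74 and 7.27 in WT mice. WT replicate 1 lay inside the KO range and the other 4 WT arrays below it, a difference of 1.31 (SE 0.44, limma adjusted p = 0.786). Ifitm1, which encodes a membrane protein that blocks viral entry, averaged 7.83 in KO and 7.28 in WT. Of the 3 genes with lower means in KO and an unadjusted p under 0.05, Herc6, the mouse ligase gene for ISG15, averaged 9.29 in KO and 9.52 in WT, Trim21 averaged 7.43 in KO and 7.64 in WT, and Ifit1bl1 lay below background. The largest lower mean belonged to Ifi44l, at 4.60 to 4.99 in KO mice, against 4.61, 4.61, 8.91, 4.76 and 8.83 in WT mice. Ifi44l was above background in WT replicates 3 and 5 alone, and its difference of -1.61 (SE 1.07, limma adjusted p = 0.786) rested on them. With KO replicate 1 left out, the higher means were 36 of 63 here, beside 29 of the 34 genes described above.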

How the data were processed

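RNA of LSK cells from 9 mice (5 ng each) was amplified and hybridised to Affymetrix whole-transcript arrays, per the labels' protocols. The deposited values are used as log2 signals per probeset, summarised by the authors with Partek 6.6, per the submitters' processing notes. The log base and normalization were not given in the sources used here; the values run from 1.84 to 19.45. The labels call the replicates biological and name no batch. Of 72688 probesets, 6732 were controls and 30604 carried 1 symbol, giving 30142 genes by the brightest probeset, with symbols updated through Entrez identifiers to RefSeq (GRCm38.p6). KO and WT were compared over all genes with limma 3.58.1 in R 4.3.3 (lmFit, eBayes, Benjamini-Hochberg, threshold 0.05). The same fit was also run on simulated data. Single genes were compared by exact permutation over 126 splits, of which 0.00794 is the smallest p. The number of arrays limits the precision, with a median standard error of 0.13.

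The members and lists were chosen with earlier results of these data known. Signals per array were given for the 10 members with the smallest p, the 5 brightest, the 5 with the widest range and Irf1, Irf7, Irf9 and Stat2, with Mx1, Ifngr1, B2m, Cxcl10 and Ifi44l added after their values were seen. Outside the members, up to 3 genes per direction and role with an unadjusted p under 0.05 were named, with fixed pathway genes; further ones are examples chosen after seeing values. Alternatives were quantile normalization, median centring, leaving out dim genes, eBayes with trend, array weights, averaging probesets, a replicate block, leaving out each array, and leaving out KO replicate 1 with WT replicate 5.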

Additional observations from a re-analysis of the deposited data

Results flagged for a closer look

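The sets of values examined were the 34 genes and their mean deviation in each group, 70 in all. In 8 of them the highest or lowest array lay apart from the others of its group by more than Dixon's limit. For independent sets without ties, chance alone gives about 1 in 20. These sets share the same arrays and hold many ties, so the count cannot be judged against that share. KO replicate 1 had the lowest Igtp signal, 11.18 against 12.50 to 12.76 in the other KO arrays. KO replicate 2 had the highest signals of Gbp3 (9.42, others 8.96 to 9.01), Oasl1 (6.65, others 6.32 to 6.36) and Mx2 (5.72, others 5.65). WT replicate 5 was highest for Trim30a (11.45, others 11.31 to 11.35) and Oas3 (6.63, others 6.59 or less than 0.02 above it), and lowest for Mx2 (5.59, others 5.65 to 5.66). WT replicate 2 was lowest for Mx1, at 4.83 with the others at 4.88. In the Mx1, Mx2, Oas3 and Trim30a sets the remaining arrays held nearly identical values, so that steps of 0.10 or less set an array apart.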

How the results depend on the processing

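No member passed the adjusted threshold under any of the 17 alternatives. The count of members with an unadjusted p under 0.05 was 2, 3 with quantile normalization, and 1 with median centring, array weights, averaged probesets or without KO replicate 1 and WT replicate 5 together, with 1 to 4 when single arrays were left out. Members with a higher mean in KO were 18, 29 with array weights and 29 without KO replicate 1 and WT replicate 5, and 13 to 29 without single arrays; 13 signs changed without KO replicate 1. The median difference of 0.018 was 0.13 without those 2 arrays together, and -0.039 to 0.099 without single arrays. Against the percentile 95 of the neg and antigenomic control probesets, at log2 signals of 10.70 to 12.27, only 3 members were above background, and 31 against the percentile 99 of receptor genes. The stricter TTCCNGGAA was found for 2 genes in place of 9, and the ISRE core followed by a C for 13 in place of 16. With the replicate number as a replicate block, 20 members were higher in KO, 0 passed and 2 had an unadjusted p under 0.05. Same-numbered arrays deviated with correlations of -0.18, 0.14, -0.014 and 0.27, and 3 of 8 arrays were closest to their own number. These values gave no clear sign that the numbers pair the mice. With so few arrays they cannot exclude a pairing, and the labels name none. Ties between arrays and 4 against 5 mice limit what could be detected.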

Other observations

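The directions of the differences by promoter motif depended on single arrays, KO replicate 1 among them, and on the scaling. Of the 16 members with an ISRE core 6 had higher and 10 lower means in KO (differences from -0.26 to 0.44), and 13 were higher without KO replicate 1. Of the 9 with a GAS match 2 had higher and 7 lower means (from -0.26 to 0.34), and 6 were higher without that array. Of the 5 with neither motif in the searched window 4 had higher means (from -0.12 to 0.15), and 5 without that array. Only 2 of these 5 were higher without KO replicate 2, without WT replicate 4 or with median centring. Over all genes 64.2% had higher means in KO, and 54.7% without KO replicate 1. With quantile normalization the higher means were 11 of 16, 5 of 9 and 4 of 5, and with array weights 14, 6 and 5. These are descriptions and were not tested.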
